A study of Mus musculus with 8 samples.

Results

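The genes of the eukaryotic translation initiation factors were followed through 3 lymphoid progenitor populations sorted from mouse fetal liver. Members were the genes whose symbol starts with Eif and a digit, leaving out the kinases named Eif2ak and the symbols of pseudogenes. This gave 52 of the 34745 genes in the deposited table, of which 49 passed the filter on low counts and were tested; the other 3 (Eif4e1b, Eif4ebp3 and Eif2c5) had no counts in any library. A count of 0 over all 8 libraries allows up to 0.0569 CPM (counts scaled to a fixed total, here the TMM-adjusted library size), and covers counting error only. Each population is a bulk RNA-seq sample of wild-type B6 mice without treatment, and no allele or agent separates the groups. ILC1/3P cells (n = 2) were gated as Flt3-, α4β7+, PD-1- and CD94+, ILCP cells (n = 3) as Flt3-, α4β7+, PD-1+ and CD94-, and CLP (n = 3) as Flt3+. Every gate also asked for live cells without lineage markers or CD25 and with CD45 and CD127. The labels give an age of 6 to 8 weeks in their cell type field, no embryonic stage, and 1 batch date for all libraries. They do not say whether libraries came from separate animals. The p-values set differences between groups against the spread of these libraries within groups, and that spread may be technical.

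Initiation begins when eIF2, bound to GTP and the initiator tRNA, joins eIF1, eIF1A, eIF3 and eIF5 on the small ribosomal subunit. The eIF4 proteins bind the mRNA cap and unwind the leader, the complex scans to a start codon under the control of eIF1 and eIF1A, and eIF5B joins the large subunit. eIF2B reloads eIF2 with GTP, and phosphorylation of the alpha subunit of eIF2 blocks that step and lowers protein synthesis in stressed cells.

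Total counts were 8082476 and 6310739 in ILC1/3P, 6043940 to 6905448 in ILCP and 4991939 to 7167619 in CLP libraries. Flt3, Pdcd1 and Klrd1 followed the gates, with Flt3 at 0 in both ILC1/3P libraries. The 2 genes listed for the CLP gate summed highest in CLP, and the 3 for the ILC1/3P gate in ILC1/3P. The 4 listed for the ILCP gate (Pdcd1, Gata3, Zbtb16 and Id2) did not sum highest in ILCP. They summed to 10061.5 and 14221 CPM in ILC1/3P, 4531 to 5207 in ILCP and 134 to 263 CPM in CLP libraries. In ILC1/3P against ILCP, edgeR called 1 of the 4 higher and 2 lower. Summed myeloid marker levels were 42.3 to 62.5 CPM in ILC1/3P, 8.71 to 14.8 in ILCP and 668 to 911 CPM in CLP libraries (5 markers, all 5 counted in CLP), and B lineage markers summed to 3.13 to 12.5 in ILC1/3P, 4.98 to 6.77 in ILCP and 1690 to 2305 CPM in CLP libraries (4 markers). Their part in any result was not tested. The 2 ILC1/3P libraries stood apart in composition: their TMM factors were 0.753 and 0.671, against 1.05 to 1.17 in ILCP and 1.09 to 1.23 in CLP libraries, and their 50 most abundant genes held 24.8% and 29.2% of counts, against 15.1% to 18.05% in ILCP and 12.9% to 16.03% in CLP. Because the factors differ this much, differences were also computed from library size without TMM factors. None of the called members changed sign then, but of all 49 tested, 16 did against CLP and 19 against ILCP.

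The sequences before the RefSeq start of 4 genes whose levels differed in ILC1/3P are shown so that the results can be read beside them. Eif1ax and Eif2s1 were higher there, and Eif4h and Eif3l lower. Each is the 250 bases before the RefSeq start on GRCm38.p6, read along the gene's strand: chrX:159371928-159372177 (plus) for Eif1ax, chr12:78861822-78862071 (plus) for Eif2s1, chr5:134639410-134639659 (minus) for Eif4h and chr15:79074973-79075222 (plus) for Eif3l. The gene as bounded in the deposited table starts further upstream than in RefSeq for a pair of them, so that all 250 bases of the Eif2s1 window and 81 bases of the Eif4h window lie inside it. Capitals mark a match to 1 of 3 motifs searched on both strands: CACGTG (the E-box that MYC-family proteins can bind), CCGGAAG (an ETS-type core, CTTCCGG on the other strand) and GATGGCG (part of the YY1 motif, CGCCATC on the other strand). No motif contains another.
Eif1ax: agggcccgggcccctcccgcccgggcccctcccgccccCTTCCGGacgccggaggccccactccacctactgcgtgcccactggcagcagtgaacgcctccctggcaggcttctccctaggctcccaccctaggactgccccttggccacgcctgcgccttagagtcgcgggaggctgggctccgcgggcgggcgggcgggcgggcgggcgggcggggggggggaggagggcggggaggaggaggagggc
Eif2s1: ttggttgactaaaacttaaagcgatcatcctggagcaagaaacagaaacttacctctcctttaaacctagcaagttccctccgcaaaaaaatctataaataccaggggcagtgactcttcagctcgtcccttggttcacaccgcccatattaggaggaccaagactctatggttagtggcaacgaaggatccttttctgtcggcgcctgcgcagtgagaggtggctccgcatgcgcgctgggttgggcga
Eif4h: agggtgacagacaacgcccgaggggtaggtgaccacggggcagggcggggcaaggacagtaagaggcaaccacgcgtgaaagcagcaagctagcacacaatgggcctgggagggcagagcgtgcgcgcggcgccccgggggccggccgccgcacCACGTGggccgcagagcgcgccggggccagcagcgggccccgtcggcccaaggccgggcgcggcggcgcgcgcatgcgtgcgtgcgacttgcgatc
Eif3l: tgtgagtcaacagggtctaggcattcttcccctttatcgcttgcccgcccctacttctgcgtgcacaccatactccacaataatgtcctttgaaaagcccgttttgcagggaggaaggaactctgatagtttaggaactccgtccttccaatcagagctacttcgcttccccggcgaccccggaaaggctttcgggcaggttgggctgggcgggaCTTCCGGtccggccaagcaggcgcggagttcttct

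Eif1ax and Eif3l each held 1 CTTCCGG, Eif4h held 1 CACGTG, and Eif2s1 held none of the motifs. RefSeq promoters were matched for 40 of the 52 members. A gene counted as holding a motif if any of its RefSeq windows did, and some members, such as Eif5a and Eif4enif1, had several windows. CACGTG lay in 9 of the 40 (22.5%), against 6.86% of 27025 genes in the RefSeq table. CCGGAAG lay in 12 (30%), against 7.826%, and GATGGCG in 2 (5%), against 2.524%. The 27025 genes were not limited to those expressed here, so these shares do not compare the members with other expressed genes. A match describes letters in this window and does not show a binding site.

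All calls of initiation factor genes lay in the comparisons with ILC1/3P. Of the 49 tested, 4 rose in ILC1/3P against CLP (Eif1ax, Eif2s2, Eif2s1 and Eif1b) and 6 fell (Eif4h, Eif3l, Eif4g2, Eif4a3, Eif3d and Eif1), by edgeR's quasi-likelihood test at an adjusted p under 0.05. These are 8.16% and 12.2% of the members, close to the 11.8% called higher and 11.7% called lower over all 13436 genes tested. Against ILCP, 4 rose (Eif1ax, Eif2s1, Eif2s2 and Eif3m) and 5 fell (Eif1, Eif4h, Eif3l, Eif4a3 and Eif3d), which is 8.16% and 10.2% of the members, against 8.06% higher and 8.25% lower over all genes. Between ILCP and CLP, 0 members were called in either direction, against 3.91% higher and 2.87% lower over all genes; 2 members had an unadjusted p under 0.05, and DESeq2 also called 0.

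The median log2 fold change of the members lay near 0 in each comparison. It was 0.01 in ILC1/3P against CLP, where the median of all genes tested was -0.25. It was 0.04 in ILC1/3P against ILCP, where that of all genes was -0.23, and -0.03 in ILCP against CLP, where that of all genes was 0.01. Libraries did not overlap between ILC1/3P and CLP for 18 members that were higher and 13 that were lower, against 23.3% and 29.1% of all genes. Between ILC1/3P and ILCP they did not overlap for 13 and 13 members, against 20.2% and 24.7%, and between ILCP and CLP for 5 and 4, against 14.1% and 14.0%. Without TMM factors, scaled to library size, the medians of all genes moved to -0.93 against CLP and -0.86 against ILCP. Those of the members moved to -0.69 and -0.61, and 1 member was called higher and 14 lower in each ILC1/3P comparison. Calls over all 13436 genes shifted the same way. They were 946 higher and 2807 lower against CLP, beside 1592 and 1571 with TMM factors. Against ILCP they were 474 and 2141, beside 1083 and 1109. The members took 1.10% and 0.996% of all counts in ILC1/3P, 1.33%, 1.25% and 1.31% in ILCP, and 1.47%, 1.46% and 1.39% in CLP libraries. Bulk values cannot tell fewer cells of a type from less RNA per cell.

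**Figure D1:**
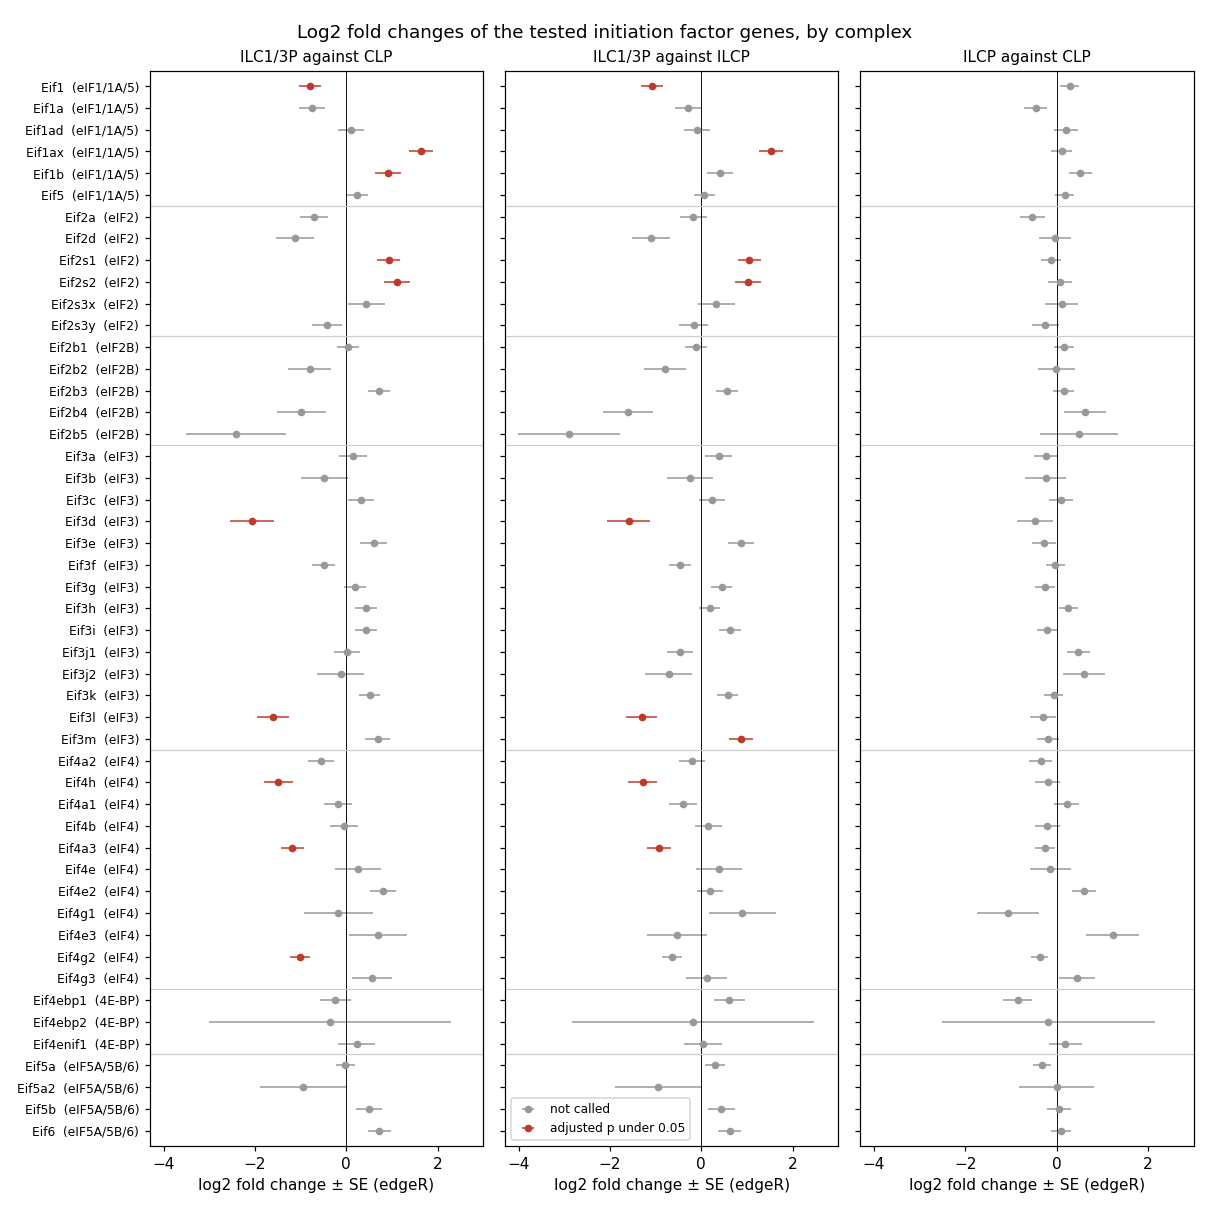
Log2 fold changes with standard errors (horizontal axis) of the 49 tested initiation factor genes, grouped by complex, in ILC1/3P against CLP, ILC1/3P against ILCP and ILCP against CLP; red marks an adjusted p under 0.05 by edgeR. Called genes lie on both sides of 0 in the 2 ILC1/3P panels, and the ILCP against CLP panel has none.

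Levels between genes were compared per length, as the authors' FPKM averaged over all 8 libraries. The fixed lengths behind these FPKM are not transcript lengths for every gene. That of Eif4a2 was 16090 bases, longer than the gene itself, which runs from 23107444 to 23114136. Eif3e had 1541 bases and Eif3k 773. Their 6732 and 2736 distinct 50-base stretches are pooled over all annotated transcripts of each gene. They give no length of 1 transcript to set beside these. Ranks between genes rest on these lengths and on the average over libraries. On that average the most abundant members were Eif3e (531 FPKM) and Eif3k (516 FPKM), both of eIF3, followed by Eif5a (460.0 FPKM), which also acts in elongation. Within eIF3, genes ran from 10.3 FPKM (Eif3j2) to 531 FPKM (Eif3e). The eIF4 genes ran from 1.13 FPKM for Eif4g1, the main scaffold gene, to 64.2 FPKM for Eif4e, the cap-binding protein. The gene with the highest average in each other set was Eif1b (152 FPKM), Eif2s1 (288 FPKM), Eif2b1 (53.7 FPKM) and Eif4ebp1 (116 FPKM). Eif3e averaged 559 ± 154 FPKM in ILC1/3P (SD, n = 2), against 469 ± 56.6 in ILCP and 575 ± 142 in CLP (n = 3 each). Eif5a averaged 346 ± 1.89 FPKM in ILC1/3P, against 437 ± 18.6 in ILCP and 559 ± 30.9 in CLP. Eif3k averaged 486 FPKM in ILC1/3P, against 509 in ILCP and 543 in CLP, so the order of these 3 genes differed between the groups. In CLP, Eif1b (128 FPKM) also stood below Eif1a (132 FPKM), and Eif4e (72.4 FPKM) below Eif4a3 (77.7 FPKM) and Eif4g2 (73.7 FPKM). FPKM are scaled to total counts alone, so they lie lower in ILC1/3P than the CPM do.

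**Figure D2:**
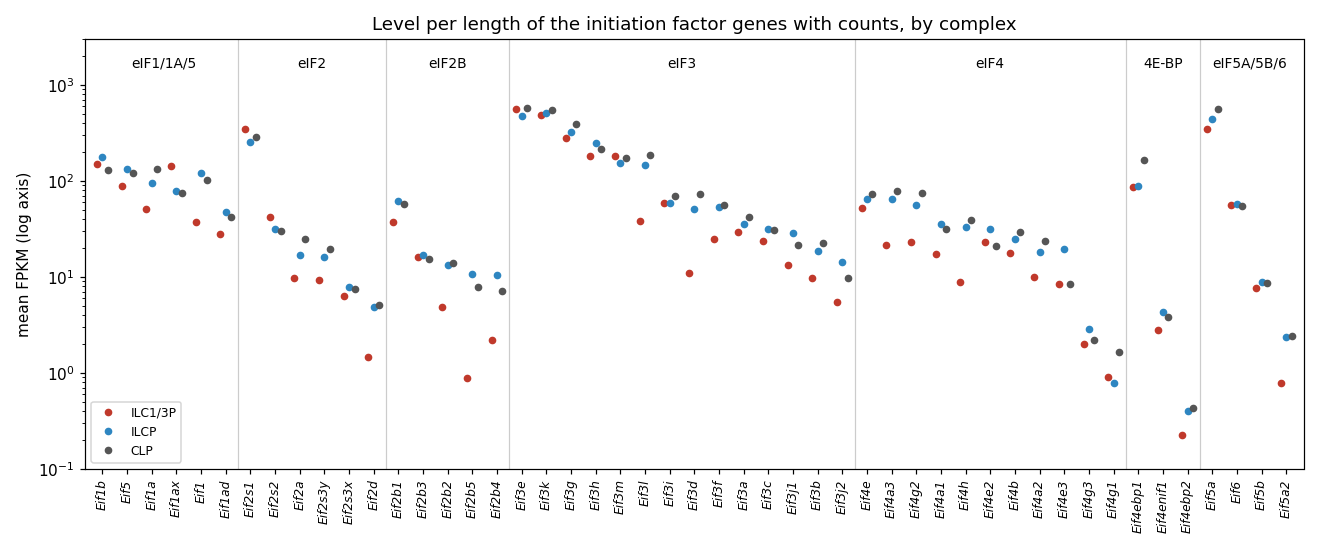
Mean FPKM (logarithmic axis) of the 49 initiation factor genes with counts in ILC1/3P (n = 2), ILCP (n = 3) and CLP (n = 3), grouped by complex and ordered by level. Genes of 1 complex differ widely in level, from 10.3 to 531 FPKM within eIF3.

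Among the factors that select the start codon, Eif1ax had the most stable difference. Eif1ax, the X-linked gene of eIF1A (ENSMUSG00000067194, chromosome X, 159372178 to 159389928 on mm10), had 1005 and 1166 CPM in ILC1/3P, against 275, 438 and 421 in ILCP and 298, 382 and 367 CPM in CLP libraries. Both ILC1/3P libraries lay above all others. Its log2 fold change was 1.64 ± 0.26 (SE) against CLP (3.11-fold, adjusted p = 0.000919) and 1.52 ± 0.26 against ILCP (2.87-fold, adjusted p = 0.00281). These calls held in all 18 alternatives, with log2 changes of 0.96 to 2.15 against CLP, and no 50-base stretch of Eif1ax was shared with another annotated gene. The autosomal eIF1A gene Eif1a averaged 318 ± 105 CPM in ILC1/3P, against 391 ± 29.8 in ILCP and 537 ± 123 in CLP libraries (SD), and was not called against CLP (-0.75 ± 0.29, adjusted p = 0.0796). Without ILC1/3P replicate 1 its adjusted p was 0.0385, and without CLP replicate 1 it was 0.0427.

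Libraries held transcripts of both sexes. Xist, expressed from the inactive X chromosome, had 140 and 215 CPM in ILC1/3P, 65.8 to 121 in ILCP and 69.4 to 131 CPM in CLP libraries (0.91 in log2 against CLP, adjusted p = 0.0923). The Y-linked Kdm5d had no counts in ILC1/3P and 4.15 to 14.5 CPM in the other libraries, while the Y-linked Uty had 3.29 and 28.8 CPM in ILC1/3P, 16.2 to 22.3 in ILCP and 22.2 to 33.1 CPM in CLP. Of the 3 genes, edgeR called 1 lower in each ILC1/3P comparison. The part of sex in the Eif1ax difference was not tested.

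Eif1 and Eif1b encode near-identical forms of eIF1, which holds scanning complexes open until a start codon is met. Eif1 (ENSMUSG00000035530, chromosome 11, 100319885 to 100322096) had 160.2 and 183 CPM in ILC1/3P, against 373, 362 and 352 in ILCP and 252, 332 and 308 CPM in CLP libraries. Both ILC1/3P libraries lay below all others. It fell by 1.08 ± 0.24 on the log2 scale against ILCP (adjusted p = 0.0101) and by 0.79 ± 0.23 against CLP (adjusted p = 0.0299). Removing ILC1/3P replicate 1 ended the call against ILCP (adjusted p = 0.0557), and the one against CLP did not pass without ILC1/3P replicate 1 or 2 or CLP replicate 2 or 3 (adjusted p = 0.137, 0.0718, 0.0944 and 0.0706), with RLE size factors (0.0517), in a fit of the 2 groups alone (0.0678) or with an offset for gene length (0.198). That offset also ended the call against ILCP (adjusted p = 0.0740). Of its 50-base stretches, 19.2% occur in other annotated genes. Eif1b (ENSMUSG00000006941, chromosome 9, 120492606 to 120495327) had 144 and 246 CPM in ILC1/3P, against 142, 137 and 163 in ILCP and 118, 90.9 and 99.0 CPM in CLP libraries. ILC1/3P and ILCP libraries overlapped, and both ILC1/3P libraries lay above the CLP libraries. It rose by 0.92 ± 0.28 on the log2 scale against CLP (adjusted p = 0.0349) and was not called against ILCP by edgeR (adjusted p = 0.377). Of the 10 calls against CLP it was lost in the most alternatives: without ILC1/3P replicate 2 the difference was 0.48 (adjusted p = 0.343), and removing ILCP replicate 1 or 3 or CLP replicate 2 or 3 also ended it (adjusted p = 0.0508, 0.0510, 0.108 and 0.0907). So did library size without TMM factors (0.22, adjusted p = 0.600), the length offset (0.23, adjusted p = 0.635) and a fit of the 2 groups alone (adjusted p = 0.0597). An antisense gene covers 12.7% of the exon bases of Eif1b, and the use of strand in counting is not given in the sources used here. Eif5, the GTPase activator of eIF2, differed by 0.25 ± 0.23 from CLP (adjusted p = 0.483), and by -0.44 without TMM factors. Eif1ad, a nuclear protein with an eIF1A-like domain, differed by 0.10 ± 0.29 (adjusted p = 0.836), and by -0.58 without them.

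**Figure D3:**
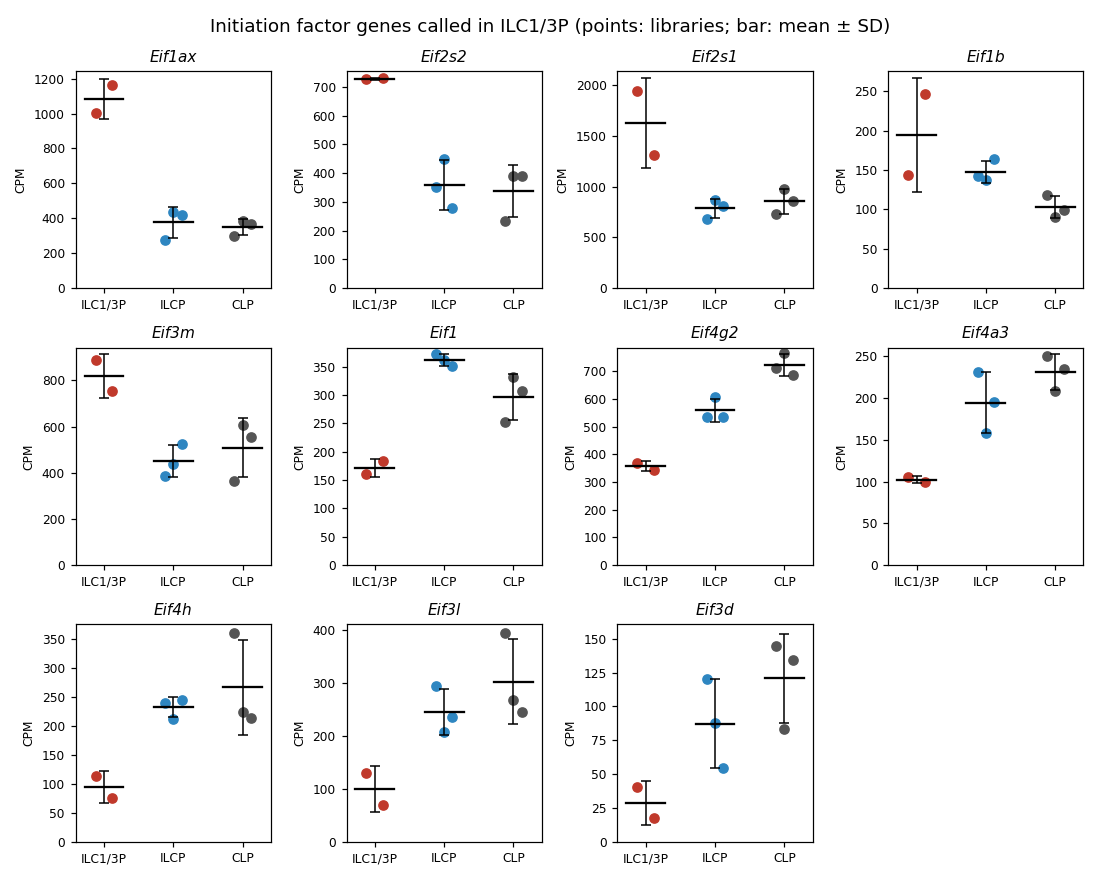
CPM per TMM-adjusted library size (vertical axes, from 0) of the 11 initiation factor genes called in an ILC1/3P comparison, in ILC1/3P, ILCP and CLP libraries; points are libraries and bars the mean ± SD. Eif1ax stands at 1005 and 1166 CPM in ILC1/3P and at 275 to 438 CPM elsewhere, and Eif4h, Eif3l and Eif3d are lowest in both ILC1/3P libraries.

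Of the eIF2 trimer, the alpha and beta subunit genes rose in ILC1/3P and the gamma genes were not called in the main fit of edgeR. Without TMM factors the pattern was another: Eif2s1 and Eif2s2 lost their calls and Eif2s3y was called lower against CLP. Eif2s1, which encodes the alpha subunit that stress kinases phosphorylate (ENSMUSG00000021116, chromosome 12, 78861819 to 78887010), had 1943 and 1317 CPM in ILC1/3P, against 684, 867 and 811 in ILCP and 731, 981 and 856 CPM in CLP libraries. Eif2s2, the beta subunit gene (ENSMUSG00000074656, chromosome 2, 154871410 to 154892935), had 727 and 731 CPM in ILC1/3P, against 351, 449 and 277 in ILCP and 232, 391.9 and 390.2 CPM in CLP libraries. For both genes the ILC1/3P libraries lay above all others. Eif2s1 rose by 0.93 ± 0.25 on the log2 scale against CLP (adjusted p = 0.0193) and by 1.05 ± 0.25 against ILCP (adjusted p = 0.0150). Eif2s2 rose by 1.11 ± 0.29 against CLP (adjusted p = 0.0164) and by 1.02 ± 0.29 against ILCP (adjusted p = 0.0331). Without ILC1/3P replicate 1, Eif2s1 differed by 0.62 from CLP (adjusted p = 0.169) and by 0.74 from ILCP (adjusted p = 0.119). Its call against CLP was also lost without CLP replicate 1 or 3 (adjusted p = 0.0506 and 0.0546), and that against ILCP without ILCP replicate 1 or 3 (adjusted p = 0.0621 and 0.0538).

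Removing ILC1/3P replicate 1 or 2 ended the Eif2s2 call against CLP (adjusted p = 0.0502 and 0.0594). The Eif2s2 call against ILCP was lost when ILC1/3P replicate 1 or 2 was removed (adjusted p = 0.0846 and 0.102), without ILCP replicate 1 or 3 (0.0944 and 0.121) and without CLP replicate 2 (0.0516). Scaled to library size without TMM factors, both genes kept their direction, at 0.28 for Eif2s1 and 0.45 for Eif2s2 against CLP, and neither was called (adjusted p = 0.394 and 0.208). The X-linked gamma gene Eif2s3x had 36.5 and 36.2 CPM in ILC1/3P, against 35.8, 27.2 and 24.1 in ILCP and 28.2, 23.7 and 28.6 CPM in CLP libraries, and shares 34.6% of its 50-base stretches with the predicted gene Gm2223. Its Y-linked partner Eif2s3y had 89.8 and 62.2 CPM in ILC1/3P, against 87.6, 66.9 and 102 in ILCP and 78.1, 114 and 112 CPM in CLP libraries. Groups overlapped for Eif2s3y in both ILC1/3P comparisons, and for Eif2s3x against ILCP they did not, by less than 1 CPM. Eif2a and Eif2d, which can deliver tRNA without the eIF2 trimer, differed from CLP by -0.71 ± 0.30 and -1.13 ± 0.42 (adjusted p = 0.116 and 0.0727). Without TMM factors edgeR called both lower against CLP (adjusted p = 0.0109 and 0.0119), and DESeq2 called Eif2d lower. The ILC1/3P libraries of Eif2d (21.1 and 17.5 CPM) lay below all others.

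The 5 genes of eIF2B, the exchange factor that recharges eIF2, had 0 calls in each comparison in the main fit of edgeR. Of these, 2 had an unadjusted p under 0.05 in ILC1/3P against CLP and 3 against ILCP. DESeq2 called Eif2b3 against CLP and Eif2b4 and Eif2b5 against ILCP. In ILCP against CLP both counts were 0. RLE size factors or a stricter filter on low counts (10 CPM in 2 libraries) in edgeR also called Eif2b3 against CLP. The length offset called it in both ILC1/3P comparisons. With no filter, edgeR called Eif2b4 and Eif2b5 against ILCP. Without TMM factors Eif2b2 was called lower against CLP, and Eif2b1 and Eif2b4 lower against ILCP. Eif2b3 had 189 and 151 CPM in ILC1/3P, against 110.2, 118 and 116 in ILCP and 95.4, 106 and 108 CPM in CLP libraries, with the ILC1/3P libraries above all others (0.72 ± 0.24 against CLP, adjusted p = 0.0522). Eif2b4 had 17.9 and 17.5 CPM in ILC1/3P, against 69.7, 26.0 and 65.9 in ILCP and 50.8, 34.0 and 20.3 CPM in CLP libraries, with the ILC1/3P libraries below all others (-1.60 ± 0.55 against ILCP, adjusted p = 0.0707; 0.0338 without ILCP replicate 2). Eif2b5, the catalytic subunit gene, had 2 and 39 counts in ILC1/3P, and its libraries were also uneven in CLP (38.4, 31.1 and 4.89 CPM), so its difference of -2.90 ± 1.11 against ILCP was imprecise (adjusted p = 0.104). Eif2b1, the most abundant of the set, ranged over 187 and 193 CPM in ILC1/3P, 187 to 217 in ILCP and 157 to 213 CPM in CLP.

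In eIF3, the large scaffold on the small subunit, 2 of 14 genes fell against both other populations and 1 rose against ILCP. Eif3l, an accessory subunit that sits with eIF3k outside the conserved core (ENSMUSG00000033047, chromosome 15, 79075223 to 79094400), had 129.8 and 68.8 CPM in ILC1/3P, against 294, 208 and 236 in ILCP and 394, 267 and 246 CPM in CLP libraries. Eif3d, a subunit that can bind the cap of some mRNAs (ENSMUSG00000016554, chromosome 15, 77958998 to 77970824), had 40.5 and 17.3 CPM in ILC1/3P, against 120.3, 87.6 and 54.3 in ILCP and 145, 83.3 and 134 CPM in CLP libraries. For both genes the ILC1/3P libraries lay below all others, with replicate 2 the lower. Eif3l fell by 1.61 ± 0.34 on the log2 scale against CLP (adjusted p = 0.0056) and by 1.31 ± 0.34 against ILCP (adjusted p = 0.0222). Eif3d fell by 2.06 ± 0.48 against CLP (adjusted p = 0.00879) and by 1.59 ± 0.47 against ILCP (adjusted p = 0.0385). Without ILC1/3P replicate 2 the differences from CLP were -1.22 for Eif3l and -1.58 for Eif3d, and both calls were lost (adjusted p = 0.0535 and 0.0641). Against ILCP that library's removal gave -0.91 and -1.10 (adjusted p = 0.167 and 0.217). Removing ILCP replicate 1 or 3 also ended the Eif3l call there (adjusted p = 0.0758 and 0.0576), and removing ILCP replicate 1 or 2 or CLP replicate 1 or 3 that of Eif3d (adjusted p = 0.124, 0.0775, 0.0539 and 0.0625), as did the length offset (0.0630) and a fit of the 2 groups alone (0.0725). No 50-base stretch of Eif3l occurs in another annotated gene, whereas the antisense gene Gm17638 covers 43.3% of the exon bases of Eif3d, so Eif3d is uncertain.

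Eif3m, another eIF3 subunit gene (ENSMUSG00000027170, chromosome 2, 104999656 to 105017080), had 887 and 754 CPM in ILC1/3P, against 386, 439 and 525 in ILCP and 365, 606 and 555 CPM in CLP libraries. Both ILC1/3P libraries lay above all others. It rose by 0.87 ± 0.27 on the log2 scale against ILCP (adjusted p = 0.0463) and differed by 0.69 ± 0.27 from CLP (adjusted p = 0.0849). The call against ILCP was lost without any 1 library other than CLP replicate 1 (adjusted p = 0.0643 to 0.176): without ILC1/3P replicates 1 and 2 the values were 0.176 and 0.0837, without ILCP replicates 1 to 3 they were 0.143, 0.0751 and 0.0712, and without CLP replicates 2 and 3 they were 0.0643 and 0.0663. Without TMM factors the difference was 0.24 (adjusted p = 0.513). Of the 50-base stretches of Eif3m, 18.4% occur in other annotated genes, and 17.2% in Gm7658. Eif3e, a subunit next to eIF3d, had 1368 and 1034 CPM in ILC1/3P, against 536, 751 and 686 in ILCP and 528, 994 and 852 CPM in CLP libraries. Its ILC1/3P libraries lay above all others, but edgeR did not call it against ILCP (0.87 ± 0.29, adjusted p = 0.0667; 0.0294 without CLP replicate 1). DESeq2 did (adjusted p = 0.0138), as did edgeR with no filter on low counts (0.0224) or the stricter one (0.0434). Eif3k, the partner of eIF3l, differed by 0.51 ± 0.23 from CLP (adjusted p = 0.138), and by -0.16 without TMM factors. Eif3j1 had 94.6 and 129.5 CPM in ILC1/3P, 183, 145 and 136 in ILCP and 139, 92.9 and 102 CPM in CLP, and its copy Eif3j2 had 13.8 and 23.2 CPM in ILC1/3P, 42.8, 25.0 and 23.4 in ILCP and 24.8, 17.3 and 18.1 CPM in CLP. The copies share 90.8% of the 50-base stretches of Eif3j2, so reads may have been split between them. The remaining 7 eIF3 genes lay between -0.50 and 0.44 on the log2 scale in ILC1/3P against CLP, and the main fit of edgeR called none. Without TMM factors Eif3f was called lower. DESeq2 and edgeR with the length offset called Eif3i against ILCP.

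Of the 11 tested eIF4 genes, 3 fell against CLP in the main fit of edgeR, 2 of them also against ILCP, and none rose. Eif4e2 was called higher against CLP by DESeq2. It was also called by edgeR with RLE size factors, with no filter on low counts or the stricter one, and with the length offset. Eif4h, a cofactor of the helicase eIF4A (ENSMUSG00000040731, chromosome 5, 134619721 to 134639490), had 114 and 75.6 CPM in ILC1/3P, against 239, 212 and 245 in ILCP and 359.9, 224 and 214 CPM in CLP libraries. Eif4g2, which encodes the scaffold DAP5 that lacks the eIF4E-binding region (ENSMUSG00000005610, chromosome 7, 111070568 to 111083030), had 369.8 and 344 CPM in ILC1/3P, against 534, 608 and 534 in ILCP and 714, 765 and 687 CPM in CLP libraries. Eif4a3, the helicase of the exon junction complex rather than of initiation (ENSMUSG00000025580, chromosome 11, 119288363 to 119300089), had 105 and 99.5 CPM in ILC1/3P, against 231, 158 and 195 in ILCP and 251, 209 and 235 CPM in CLP libraries. For all 3 genes the ILC1/3P libraries lay below all others. Against CLP, Eif4h fell by 1.49 ± 0.31 on the log2 scale (adjusted p = 0.00512), Eif4a3 by 1.18 ± 0.26 (adjusted p = 0.00684) and Eif4g2 by 1.02 ± 0.22 (adjusted p = 0.00604). Against ILCP, Eif4h fell by 1.29 ± 0.31 (adjusted p = 0.0157) and Eif4a3 by 0.93 ± 0.26 (adjusted p = 0.0309), and Eif4g2 differed by -0.65 ± 0.22 (adjusted p = 0.0661). The Eif4a3 call against CLP held in all 18 alternatives, none of which changed how reads from shared sequence were counted. Of the 50-base stretches of Eif4a3, 16.5% occur in other annotated genes, and 10.55% in Gm5576. Removing ILC1/3P replicate 2 ended the Eif4h call against CLP (adjusted p = 0.0523), and removing ILC1/3P replicate 2 or ILCP replicate 3 ended that against ILCP (adjusted p = 0.124 and 0.0521), as did the length offset (0.0509). The Eif4a3 call against ILCP was lost when ILC1/3P replicate 1 or 2 was removed (adjusted p = 0.0816 and 0.134) and without ILCP replicate 1 or 3 (0.0994 and 0.0742), in a fit of the 2 groups alone (0.0614) and with the length offset (0.140). With an offset for gene length Eif4g2 differed from CLP by -0.59 and lost its call (adjusted p = 0.0842).

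The remaining eIF4 genes were not called in the main fit of edgeR. Without the factors Eif4a2 was called lower against both populations and Eif4a1 against ILCP. Eif4e had 272 and 787 CPM in ILC1/3P, against 351, 432 and 429.8 in ILCP and 457, 696 and 178 CPM in CLP libraries, so libraries of 1 group differed more than the groups did. Eif4e2, which encodes the homolog 4EHP that binds caps without eIF4G, had 232 and 345 CPM in ILC1/3P, against 288, 273 and 193 in ILCP and 160.4, 196 and 139.6 CPM in CLP libraries. Its ILC1/3P libraries lay above the CLP libraries (0.80 ± 0.28, adjusted p = 0.0596; 0.0384 without ILC1/3P replicate 1), and those of ILCP overlapped with both. Eif4e3 had 29.0 and 30.7 CPM in ILC1/3P, 64.1, 35.4 and 30.1 in ILCP and 24.1, 26.3 and 4.74 CPM in CLP libraries. Of the helicase genes, Eif4a1 had 232 and 222 CPM in ILC1/3P, 219, 255 and 427 in ILCP and 298, 214 and 260.2 CPM in CLP libraries, and Eif4a2 had 197 and 259.8 CPM in ILC1/3P, 198, 343 and 248 in ILCP and 274, 379.5 and 349 CPM in CLP libraries. The groups overlapped for Eif4a1, of whose 50-base stretches 28.4% occur in other annotated genes, and 24.2% in the pseudogene Eif4a-ps4. Reads may have been split between these genes, so the level of Eif4a1 is uncertain. Eif4g1 had 17.1 and 15.6 CPM in ILC1/3P, 15.1, 2.35 and 8.87 in ILCP and 20.6, 13.6 and 20.9 CPM in CLP libraries, and Eif4g3 had 41.0 and 41.8 CPM in ILC1/3P, 22.6, 57.1 and 35.1 in ILCP and 25.8, 29.8 and 28.5 CPM in CLP libraries. Neither scaffold gene approached the level of Eif4g2 per length: over all libraries Eif4g1 averaged 1.13 FPKM.

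The inhibitors that compete with eIF4G for eIF4E were led by Eif4ebp1, a target of mTORC1. It had 70.7 and 169.7 CPM in ILC1/3P, against 73.0, 82.4 and 79.96 in ILCP and 126, 148 and 151 CPM in CLP libraries. The ILCP libraries lay below the CLP libraries without overlap, and the ILC1/3P libraries spanned both. The difference between ILCP and CLP was -0.85 ± 0.31 (adjusted p = 0.141), the smallest p of any member in that comparison. It was called when only these 2 groups were fitted (adjusted p = 0.0323) and without ILC1/3P replicate 1 or 2 (adjusted p = 0.0390 and 0.0407). Eif4ebp2 averaged 0.369 FPKM and had no counts in 4 of 8 libraries, Eif4ebp3 had none in any, and Eif4enif1, which carries eIF4E into the nucleus, differed by 0.23 ± 0.41 from CLP (adjusted p = 0.732), and by -0.43 without TMM factors.

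Eif5a had 2098 and 2373 CPM in ILC1/3P, 1715, 1835 and 1893 in ILCP and 2140.4, 2201 and 2437 CPM in CLP libraries, and ILC1/3P and CLP libraries overlapped (adjusted p = 0.976 by edgeR). Fits without TMM factors called it lower against CLP. Its paralog Eif5a2 had 4.28 and 6.85 CPM in ILC1/3P, 15.1, 15.2 and 1.97 in ILCP and 9.18, 8.83 and 14.2 CPM in CLP. Eif6, which keeps the large subunit from joining too early, had 279.8 and 367 CPM in ILC1/3P, against 206, 244 and 182 in ILCP and 225, 183 and 179.7 CPM in CLP libraries. Its ILC1/3P libraries lay above all others, and the main fit of edgeR did not call it (0.72 ± 0.25 against CLP, adjusted p = 0.0555). DESeq2 and edgeR with the length offset called Eif6 in both ILC1/3P comparisons. RLE size factors or the stricter filter in edgeR called it against CLP. Eif5b, the factor of subunit joining, differed by 0.50 ± 0.29 from CLP (adjusted p = 0.235), and by -0.19 without TMM factors.

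Ratios of related genes within a library do not depend on how libraries are scaled, but they do depend on gene length. Their size rests on the fixed lengths behind the FPKM. In ILC1/3P against CLP, genes of 12 to 2145 bases had a median log2 change of 0.37. Those of 2146 to 3808 bases had -0.36. Eif1b (917 bases) lies in the first class and Eif1 (3313 bases) in the second. The length offset ended the calls of both against CLP. The part of length in the ratios was not tested. Per length, Eif1ax stood at 2.19 and 4.08 times Eif1a in ILC1/3P, against 0.641, 0.978 and 0.847 times in ILCP and 0.628, 0.588 and 0.483 times in CLP libraries. On the fixed lengths of 5350 bases (Eif1ax) and 4569 bases (Eif1a), Eif1ax was the more abundant eIF1A gene in both ILC1/3P libraries. It was the less abundant in all others. Both lengths lie in the class of 3809 to 5945 bases. Eif1b stood at 3.24 and 4.85 times Eif1 in ILC1/3P, against 1.38, 1.37 and 1.68 times in ILCP and 1.69, 0.989 and 1.16 times in CLP libraries, again without overlap. Eif4g2 stood at 11.9 and 10.8 times Eif4g3 in ILC1/3P, against 31.0, 14.0 and 20.005 times in ILCP and 36.3, 33.7 and 31.7 times in CLP libraries. The 3 groups did not overlap. Eif2s3y stood at 1.71 and 1.20 times Eif2s3x in ILC1/3P, against 1.70, 1.71 and 2.96 times in ILCP and 1.93, 3.33 and 2.73 times in CLP libraries, and overlapped between ILC1/3P and ILCP. Two-sided exact permutation tests of the log2 ratio gave p = 0.1 for Eif1ax to Eif1a in all 3 comparisons and for Eif1b to Eif1 in both ILC1/3P comparisons. The same p came for Eif4g2 to Eif4g3 in ILC1/3P and in ILCP against CLP. It also came for Eif4g2 to Eif4g1 in ILC1/3P against CLP and for Eif4e3 to Eif4e in ILCP against CLP. A p of 0.1 is the smallest this design allows, and it became 0.3 after adjustment over the 27 tests of 9 ratios. No ratio could pass the threshold with so few libraries.

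**Figure D4:**
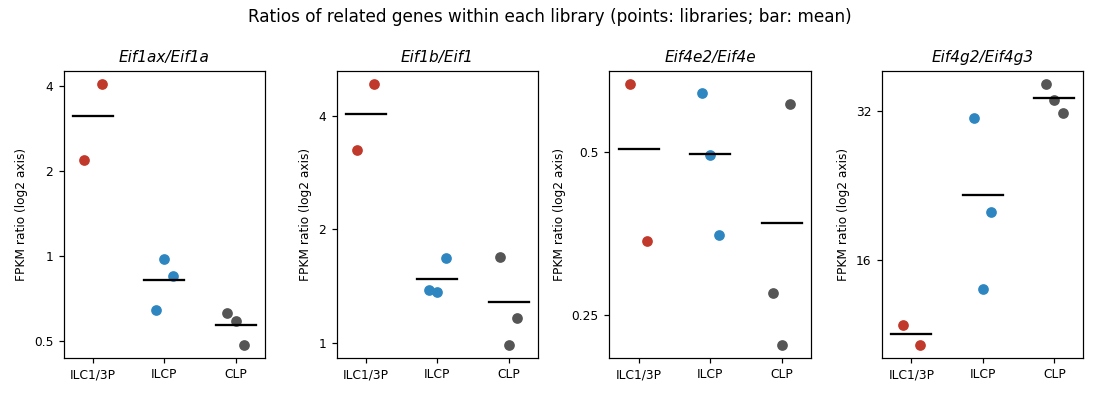
FPKM ratios (log2 axes) of related initiation factor genes within each library of ILC1/3P, ILCP and CLP; points are libraries and bars the arithmetic mean. Eif1ax to Eif1a is 2.19 and 4.08 in ILC1/3P and below 1 in the other libraries, while Eif4e2 to Eif4e overlaps between all groups.

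Other genes of the pathway were read from lists of neighbouring functions. Of 11 tested eIF2 kinases and genes of the integrated stress response, 0 were called by edgeR in any comparison. In ILC1/3P against CLP 1 had an unadjusted p under 0.05 and DESeq2 called 0, against ILCP 2 had such a p and DESeq2 called 2 (Ppp1r15b and Eif2ak1), and in ILCP against CLP both counts were 0. Atf4, the transcription factor whose translation rises when eIF2 is phosphorylated, averaged 104 ± 27.2 CPM in ILC1/3P, against 105 ± 27.7 in ILCP and 105 ± 6.4 in CLP libraries (SD). Of 19 regulators of mTORC1 and eIF4F, 2 rose and 1 fell in ILC1/3P against CLP, and 1 rose against ILCP. As given above, 11.8% of all genes were called higher and 11.7% lower against CLP, and 8.06% and 8.25% against ILCP, which is the background for this and the next lists. Rheb, the GTPase that activates mTORC1, had 673 and 857 CPM in ILC1/3P, against 295, 351 and 276 in ILCP and 252, 351 and 321 CPM in CLP libraries. It rose by 1.31 ± 0.24 on the log2 scale against CLP (adjusted p = 0.00251) and by 1.32 ± 0.24 against ILCP (adjusted p = 0.00434), and both calls held without any 1 library. By limma on FPKM they did not pass (adjusted p = 0.0610 and 0.0636). Deptor, an inhibitor of mTOR, had no counts in ILC1/3P and 93 counts over the CLP libraries, at least 15.2-fold lower in ILC1/3P against a floor of 3 counts over the group (adjusted p = 0.0306). Its call was lost without ILC1/3P replicate 1 or 2 or CLP replicate 2 or 3 (adjusted p = 0.0925, 0.0890, 0.0597 and 0.0831). The other gene that rose, Paip2b, an inhibitor of poly(A)-binding protein, was named after its values were seen (1.88 ± 0.62, adjusted p = 0.0477; 0.82, adjusted p = 0.492, without ILC1/3P replicate 2). Leaving out ILC1/3P replicate 1 or CLP replicate 3 kept the Paip2b call, and leaving out any other library ended it (adjusted p = 0.0512 to 0.492).

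Of 15 other initiation proteins, 3 rose and 3 fell in ILC1/3P against CLP, and 1 rose and 3 fell against ILCP, to be read against the same 11.8%, 11.7%, 8.06% and 8.25% of all genes. Mcts1, whose product works with DENR in reinitiation and ribosome recycling, had 749.6 and 790.2 CPM in ILC1/3P, against 178, 229.9 and 203 in ILCP and 123, 206 and 223 CPM in CLP libraries. It rose by 2.07 ± 0.28 on the log2 scale against CLP (adjusted p = 0.000322) and by 1.92 ± 0.28 against ILCP (adjusted p = 0.00135), in all 18 alternatives. Denr and Mcts2, a copy of Mcts1, also rose against CLP (1.06 ± 0.26 and 3.04 ± 0.71, adjusted p = 0.0112 and 0.0092), and both were named after their values were seen. Denr was not called without ILC1/3P replicate 2 (0.65, adjusted p = 0.143) or without TMM factors (0.36, adjusted p = 0.272). Abce1, the ribosome recycling ATPase, had 37.3 and 55.1 CPM in ILC1/3P, against 172, 117 and 194 in ILCP and 245, 351 and 233 CPM in CLP libraries. It fell by 2.58 ± 0.35 on the log2 scale against CLP (adjusted p = 0.000316). Bzw1, which encodes the eIF5 mimic 5MP2, had 568 and 424 CPM in ILC1/3P, against 1290.3, 1344 and 1732 in ILCP and 1402, 1989 and 1583 CPM in CLP libraries, and fell by 1.55 ± 0.27 against ILCP (adjusted p = 0.00329). Both genes lay lower in every ILC1/3P library than in any other. The third gene that fell in both comparisons, named after its values were seen, was the Y-linked helicase gene Ddx3y (-1.71 ± 0.34 against CLP, adjusted p = 0.00377). The part of sex in the Ddx3y difference was not tested. Abce1 fell against ILCP by 1.80 ± 0.34 (adjusted p = 0.00442), and Bzw1 against CLP by 1.74 ± 0.27 (adjusted p = 0.000906).

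Of 12 elongation and release genes, 3 rose and 2 fell in ILC1/3P against CLP, and 2 rose against ILCP, beside the same shares of all genes (11.8%, 11.7%, 8.06% and 8.25%). Eef1e1, a scaffold protein of the tRNA synthetase complex, had 572 and 781 CPM in ILC1/3P, against 209, 222 and 197 in ILCP and 166, 247 and 285 CPM in CLP libraries, and rose by 1.54 ± 0.27 on the log2 scale against CLP (adjusted p = 0.00182). Eef1d, an exchange factor of eEF1A, had 293 and 405 CPM in ILC1/3P, against 156, 149 and 103 in ILCP and 146, 143 and 129.9 CPM in CLP libraries, and rose by 1.32 ± 0.27 (adjusted p = 0.00399). Without TMM factors Eef1d differed by 0.63 and was not called (adjusted p = 0.0983), nor was it by limma on FPKM (0.59, adjusted p = 0.169). For Eef1e1 and Eef1d the ILC1/3P libraries lay above all others. The other calls against CLP, named after their values were seen, were the ribosome rescue gene Pelo, which rose (3.35 ± 0.97, adjusted p = 0.0266), and Eef1g and the Pelo partner Hbs1l, which fell by 0.99 ± 0.26 and 1.96 ± 0.49 (adjusted p = 0.0178 and 0.0127). Pelo was not called without ILC1/3P replicate 2 or CLP replicate 1 or 2 (adjusted p = 0.128, 0.0786 and 0.0814), Eef1g without ILC1/3P replicate 1 or CLP replicate 1 (0.119 and 0.0502) or with the length offset (0.0937), and Hbs1l without ILC1/3P replicate 2 (0.0829). Between ILCP and CLP, edgeR called 0 of the 57 genes tested in these 4 lists; 5 had an unadjusted p under 0.05, and DESeq2 called 1 (Mknk2).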

How the data were processed

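Bulk RNA-seq of sorted fetal liver cells was analysed from 1 deposited table of 8 libraries: ILC1/3P (2), ILCP (3) and CLP (3). Titles of the samples gave each group and replicate number. cDNA was made in cell lysate with a SMARTer Ultra Low RNA Kit, amplified by PCR and sequenced on a NovaSeq6000, per the labels' protocols. Per the file headers, the authors deposited whole-number counts per gene. Per the file headers, the authors also deposited FPKM, which match the counts divided by total counts and 1 fixed length per gene. Coordinates are on mm10, the build named in the submitters' processing notes. Not given in the sources used here are the aligner, counter, annotation and strand setting. Molecular identifiers are not mentioned, so floors cover counting error only.

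The main test was that of edgeR 4.0.16 (R 4.3.3) on the counts: filterByExpr left 13436 genes, libraries were scaled by TMM, and a robust quasi-likelihood model with 1 mean per group was fitted to all 8 libraries. Adjusted p-values are Benjamini-Hochberg values of two-sided tests over all genes tested, and calls used 0.05. Standard errors came from the F statistic. The common biological coefficient of variation was 0.679, with 5 residual degrees of freedom. CPM are counts per TMM-adjusted library size. Ratios of related genes were taken from FPKM and tested by exact permutation. The programs were tested on simulated counts. Shared 50-base stretches and exon overlaps were taken from the reference annotation supplied with the data, matched by gene ID. Promoters came from RefSeq on GRCm38.p6.

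The members, complexes and neighbouring lists were chosen with earlier results of these data known. Named were all called members, the highest gene per length of each complex, the paralog sets, and the 2 called genes with the smallest p of each neighbouring list. Alternatives were RLE size factors, library size only, DESeq2 1.42.0, other filters on low counts, 2-group fits, limma 3.58.1 on log2(FPKM + 1), a gene-length offset, a replicate block, and leaving out each library.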

Additional observations from a re-analysis of the deposited data

How the results depend on the processing

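Differences printed for genes were repeated under 18 alternatives: of 1025 values, 844 kept their sign and side of the threshold, 115 lost a call, 54 gained one and 12 changed sign. The 12 were of genes not called, in ILC1/3P against CLP. With library size only and with limma on FPKM, Eif5 became -0.44 and -0.43, Eif1ad -0.58 and -0.55, Eif5b -0.19 and -0.16, Eif4enif1 -0.43 and -0.32, and Eif3k -0.16 and -0.16; Eif3k also became -0.31 with the length offset and -0.29 with that offset and the block. In ILC1/3P against CLP, 4 members were called higher and 6 lower. The higher count became 7 with RLE size factors or the stricter filter (10 CPM in 2 libraries), 8 with DESeq2, the length offset or the replicate block with the length offset, and 1 with library size only or limma on FPKM. The lower count became 14 with library size only and 15 with limma. Over all genes, 1592 were called higher and 1571 lower in the main fit. The higher count of all genes was 1662 with RLE, 1639 of 9539 with the stricter filter and 1956 with DESeq2. It was 1815 with the length offset, 1581 with the block and offset, 946 with library size only and 1108 with limma. The lower count of all genes was 2807 with library size only and 3183 with limma. The median of 0.01 became -0.69 with library size only, -0.55 with limma, 0.24 with the length offset and 0.28 with the block and length offset. In ILC1/3P against ILCP, 4 were called higher and 5 lower. The higher count became 1 with library size only or limma, 8 with DESeq2 or the block with the length offset, and 7 with the length offset. The lower count became 14 with library size only, 13 with limma and 8 with DESeq2. It became 3 with the 2-group fit or the block with the length offset, and 1 with the length offset. Over all genes the main fit called 1083 higher and 1109 lower. Library size only gave 474 and 2141, limma 662 and 2379, and DESeq2 1452 and 1653. The length offset gave 1233 and 761, the block with it 1111 and 550, and the 2-group fit 986 and 803 of 12151. The median of 0.04 became -0.61 with library size only, -0.46 with limma and 0.18 with the block and length offset. In ILCP against CLP the 2-group fit called 1 member lower (Eif4ebp1). The cause of these changes was not tested. FPKM and library size only lack the TMM factors, which were lowest in ILC1/3P.

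Leaving out 1 library gave 2 to 4 higher and 3 to 7 lower members in ILC1/3P against CLP (median -0.004 to 0.12). Against ILCP it gave 1 to 5 and 2 to 5 (median -0.03 to 0.12). In ILCP against CLP it gave 0 to 0 and 0 to 1 (median -0.06 to 0.01). Against CLP the lowest counts, 2 higher and 3 lower, came without ILC1/3P replicate 2, and 2 higher also without CLP replicate 3. Against ILCP, 1 higher and 2 lower came without ILCP replicate 1 or 3, and 2 higher and 2 lower without ILC1/3P replicate 2.

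Whether replicate numbers pair the libraries could not be told, and the labels tie no number to an animal. Same-numbered libraries deviated together with correlations of -0.03 to 0.12, and differently numbered ones with -0.13 to 0.05. The highest, 0.12, was between ILCP 1 and CLP 1. Deviations within a group sum to 0, so with so few libraries these correlations cannot decide the question. With the replicate block the counts were 3 higher and 6 lower in ILC1/3P against CLP, 4 and 5 against ILCP, and 0 and 0 in ILCP against CLP, and the medians were 0.01, -0.003 and -0.02. The block lost 1 member call (Eif1b against CLP, adjusted p = 0.0740) and gained 0, and among genes of the other lists it lost Deptor, Paip2b and Pelo against CLP (adjusted p = 0.105, 0.0534 and 0.0754) and gained Xist (0.0424).

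Over all genes split into 5 classes of length, the shortest class had a median log2 change of 0.37 in ILC1/3P against CLP and the other classes -0.33 to -0.44; across the 49 members the Spearman correlation of that change with length was -0.03, a description over genes that share libraries. With 2 ILC1/3P libraries no permutation test can give a p under 0.1, and low counts limit Eif2b5, Eif4ebp2 and Eif4g1.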

Other observations

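Symbols of 7 Eif pseudogenes were left out of the members. The most abundant, Eif4a-ps4, had 723 and 732 CPM in ILC1/3P, 714, 688 and 843 CPM in ILCP and 658, 698 and 711 CPM in CLP libraries, above the parent gene Eif4a1 in all 8 libraries on this scale without length. Eif3s6-ps2, a copy of Eif3e, had 30.8 and 20.8 CPM in ILC1/3P, 10.95, 15.2 and 12.4 CPM in ILCP and 10.2, 12.3 and 12.7 CPM in CLP libraries, and its ILC1/3P libraries lay above all others, as those of Eif3e did. These pseudogenes were described after their values were seen.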
